A study of Drosophila melanogaster with 16 samples.

Results

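The genes described are 10 of the 10128 in the deposited table: the ecdysone receptor gene EcR, its partner usp, and the response factors Eip74EF, Eip75B, br, Eip78C, Hr46 (also called Hr3), Hr4, Hr39 and ftz-f1. They were chosen by name for their place in ecdysone signalling, and all 10 passed the filter on low values. RNA came from whole WT larvae of Drosophila melanogaster. They spent 24 h at 25 °C on low-sugar food made with 10% yeast (LSD) and were transferred early in the second instar to food with 2% blue dye. High-sugar food (HSD), which adds 15% sucrose to the 10% yeast, was given for 4 h (n = 3 libraries), 8 h (n = 3) or 16 h (n = 4), and LSD was given again for 8 h (n = 4). LSD was sampled at 8 h alone, so at 4 h and 16 h the diet cannot be told apart from the time. The labels mark another 2 libraries as removed outliers, and these were not analysed here.

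Ecdysone is the steroid hormone that times insect molts. Its active form binds a heterodimer of the nuclear receptors EcR and Ultraspiracle (usp). In the classical cascade the bound receptor turns on early genes that code for transcription factors (Eip74EF, Eip75B, br), which act with the receptor on a later set of nuclear receptor genes (Hr46, Hr4, Eip78C, Hr39). The ftz-f1 gene is switched on when the hormone has fallen after a pulse, and Hr46 protein is an activator of it. In larvae these factors run from one molt to the next, together with the synthesis of new cuticle.

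A library held 16300308 to 25284073 counted reads, and 3 reads were worth 0.117 to 0.182 normalised read counts. Within groups, Pearson's r across genes was 0.971 to 0.992 over 18 pairs of libraries. A p-value sets a group difference against the spread of libraries within groups, taken over all groups together. The labels do not tie replicates to separate cultures, so that spread can be technical. In RNA of whole larvae, fewer cells of a type and less RNA per cell cannot be told apart. Salivary gland and fat body markers could hardly be checked, since 1 of 7 and 0 of 5 written markers were in the table. The 4 of 5 measured prothoracic gland markers, genes of the gland that makes ecdysone, summed to 26.2 to 30.9 in HSD at 4 h, 33.9 to 38.4 in HSD at 8 h, 37.5 to 45.3 in HSD at 16 h and 33.9 to 40.2 in LSD.

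The plot of the 10 genes by library shows their values in full. After 16 h on HSD, ftz-f1, Eip74EF, Hr46 and usp were lower and Hr39 was higher than in LSD larvae at 8 h, with ftz-f1 at 0.284 times its LSD level. After 8 h, the comparison matched for time, br alone passed the test, with a level 1.20-fold lower. After 4 h none of the 10 passed the test.

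**Figure D1:**
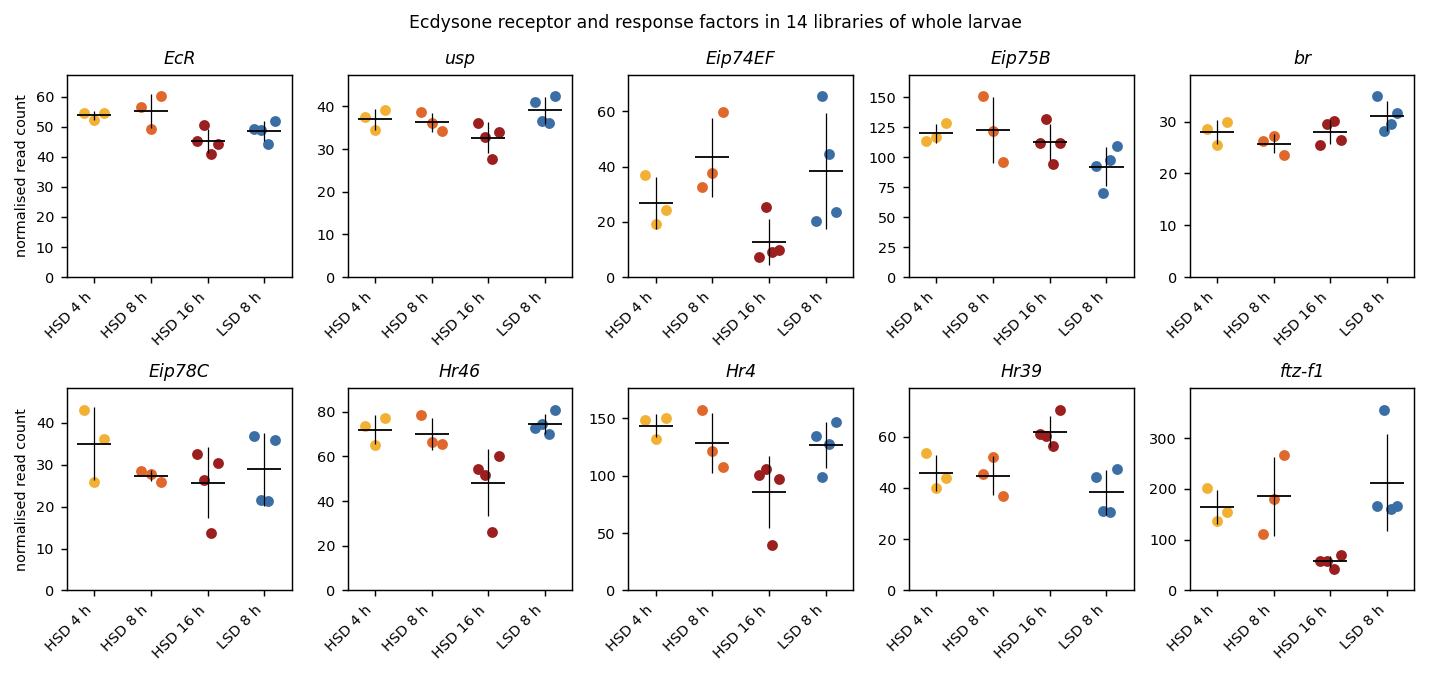
Normalised read count (linear axis from 0) of each of the 10 genes in the 14 libraries; points are libraries, horizontal lines group means and vertical lines SD (n = 3 for HSD at 4 h and 8 h, n = 4 for HSD at 16 h and LSD at 8 h). The 4 HSD 16 h libraries sit between 42.6 and 70.6 for ftz-f1, under all LSD libraries (160.3 to 356), and between 56.2 and 70.6 for Hr39, above all LSD libraries (30.6 to 47.4).

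Each count is read against the share of all 10114 tested genes that limma called in the same comparison (adjusted p under 0.05). For HSD at 8 h against LSD, 0 of the 10 genes were higher and 1 was lower, where 17.5% of all genes were called higher and 16.9% lower. An unadjusted limma p under 0.05 was found there for 3 of the 10 (br, Eip75B and EcR). For HSD at 4 h against LSD, limma called 0 of the 10, where 12.8% of all genes were called higher and 11.4% lower. An unadjusted p under 0.05 was found for 1 of them (Eip75B), and edgeR on the recovered reads called 0. For HSD at 16 h against LSD, 1 of the 10 was higher and 4 were lower, against 19.4% of all genes higher and 20.4% lower. The 3 comparisons use the same LSD libraries. The median log2 difference of the 10 genes was -0.01 at 8 h, 0.05 at 4 h and -0.22 at 16 h, and that of all genes was -0.01, 0.01 and 0.00. Their median absolute log2 difference at 16 h was 0.47, beside 0.20 for all genes; at 8 h it was 0.19 beside 0.21.

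Within HSD, ftz-f1 fell at 16 h relative to both earlier times. For HSD at 16 h against 8 h, 0 of the 10 genes were higher and 3 were lower (ftz-f1, Eip74EF and EcR), with 14.1% of all genes higher and 15.4% lower. For HSD at 16 h against 4 h, 0 were higher and 4 were lower (ftz-f1, EcR, Hr46 and Hr4), with 16.6% of all genes higher and 19.2% lower. Between HSD at 8 h and at 4 h limma called 0 of the 10, 0 had an unadjusted p under 0.05 and edgeR called 0, where 4.71% of all genes were called higher and 4.5% lower. The authors' deposited table gave 1 of the 10 genes as higher and 4 as lower for HSD at 16 h against LSD. The authors' deposited table also gave 3 as lower for HSD at 16 h against 8 h and 1 as lower for HSD at 8 h against LSD. The split of all calls moved under quantile normalization: 59.4% of those at 16 h against LSD were higher, beside 48.8% in the main analysis. The shares were 69% beside 47.8% for 16 h against 8 h, 58.2% beside 46.4% for 16 h against 4 h, and 38% beside 51.1% for 8 h against 4 h.

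**Figure D2:**
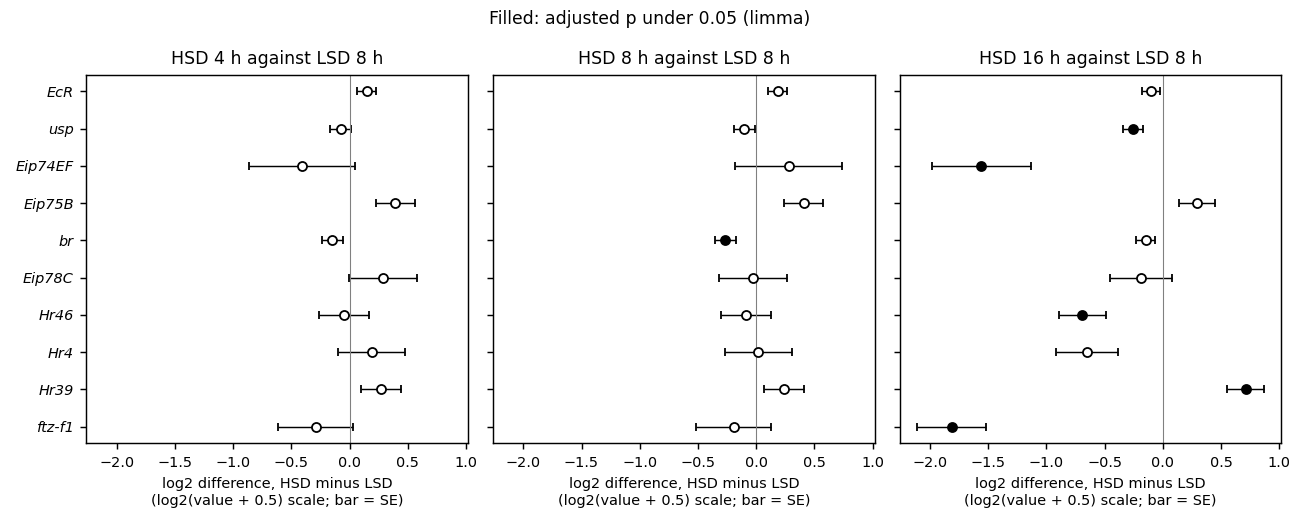
Log2 difference of each of the 10 genes between HSD (4, 8 and 16 h) and LSD at 8 h, on the log2(value + 0.5) scale, with the SE from limma as bars; filled points have an adjusted p under 0.05. The 5 filled points at 16 h run from -1.81 (ftz-f1) to 0.71 (Hr39), and the single filled point at 8 h is br at -0.27.

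The receptor pair moved little. EcR (FBgn0000546, chromosome arm 2R, 6087873 to 6169087, minus strand, BDGP6.54), which binds the hormone, lay at 54.5, 52.2 and 54.7 normalised read counts in HSD at 4 h, 56.5, 49.2 and 60.2 at 8 h, 45.3, 50.4, 41.0 and 44.3 at 16 h, and 49.3, 48.8, 44.2 and 51.9 in LSD. The 4 h libraries lay above all LSD libraries, the 8 h libraries overlapped LSD, and 3 of the 4 libraries at 16 h lay below every other HSD library. EcR fell at 16 h by 0.28 on the log2 scale relative to HSD at 8 h (SE 0.08, adjusted p = 0.0220) and by 0.25 relative to 4 h (SE 0.08, adjusted p = 0.0328). Against LSD its log2 difference was 0.18 at 8 h (SE 0.08, adjusted p = 0.109), 0.15 at 4 h (adjusted p = 0.225) and -0.10 at 16 h (adjusted p = 0.317). Quantile normalization ended both calls within HSD (adjusted p = 0.135 and 0.0700). So did leaving out HSD 16 h replicate 3 (0.0595 and 0.0895) or replicate 4 (0.0504 and 0.0705). The call relative to 8 h was also lost without HSD 8 h replicate 2 (0.0770) or 4 (0.103). The call relative to 4 h was lost without any one of the HSD 4 h libraries (0.0519 to 0.0924) or HSD 16 h replicate 1 (0.0556).

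The partner gene usp (FBgn0003964, X, 2038798 to 2042311, minus strand) lay at 37.4, 34.4 and 39.2 in HSD at 4 h, 38.6, 36.1 and 34.2 at 8 h, 36.2, 32.7, 27.8 and 34.0 at 16 h, and 41.1, 36.6, 36.1 and 42.4 in LSD. The 16 h libraries were the lower ones but touched the LSD range, where their highest value passed the lowest of LSD. At 16 h usp averaged 32.7 ± 3.59, against 39.1 ± 3.15 in LSD (SD, n = 4 each), and fell by 0.26 on the log2 scale (SE 0.09, adjusted p = 0.0299). Quantile normalization ended that call (0.0532), as did fitting these 2 groups alone (0.0672). It was also lost without HSD 16 h replicate 2 (0.0540) or 3 (0.0836) or LSD replicate 1 (0.0769) or 4 (0.0755). The usp gene overlaps Actn on its own strand and CG4313 on the other strand, and both are in the table. Overlaps were taken from gene starts and ends, and shared exons were not checked. Some reads could belong to Actn where the genes share exons. Reads of CG4313 could be included if the counting ignored strand, a setting that no source used here gives.

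Among the early factors Eip74EF changed most, Eip75B was not called and br changed by little. Eip74EF (FBgn0000567, 3L, 17558672 to 17619325, minus strand) codes for an ETS-domain transcription factor and overlaps no other annotated gene. It lay at 37.2, 19.1 and 24.1 in HSD at 4 h, 32.5, 37.8 and 59.7 at 8 h, 7.41, 25.3, 8.92 and 9.73 at 16 h, and 20.3, 65.5, 44.4 and 23.6 in LSD. Replicates 1, 3 and 4 at 16 h lay under every other library, and replicate 2 lay inside the LSD and HSD 4 h ranges. Eip74EF fell 2.95-fold at 16 h relative to LSD (log2 -1.56, SE 0.42, adjusted p = 0.0114). It kept this call under all 26 alternatives (0.00226 to 0.0447), though some of these left out only a library of another group. Relative to HSD at 8 h it fell 3.58-fold, with no overlap (log2 -1.84, SE 0.46, adjusted p = 0.0106; 0.0511 without HSD 8 h replicate 4). Relative to HSD at 4 h its log2 difference was -1.15 (SE 0.46, adjusted p = 0.0685), which passed the threshold without HSD 16 h replicate 2 (0.0138) or LSD replicate 2 (0.0458). At 8 h it averaged 43.3 ± 14.5 in HSD (n = 3) and 38.5 ± 21.0 in LSD (n = 4), a difference within the spread (adjusted p = 0.682).

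Eip75B (FBgn0000568, 3L, 17950953 to 18064696, minus strand), a heme-binding nuclear receptor that represses other genes of the cascade, differed from Eip74EF in where its high libraries lay. It had 113, 117 and 129 in HSD at 4 h, 151, 121 and 96.1 at 8 h, 112, 132, 94.5 and 112 at 16 h, and 92.6, 69.7, 97.3 and 109 in LSD. All 3 libraries at 4 h lay above LSD, and the 8 h and 16 h libraries overlapped it. It differed from LSD in one direction at each time. The log2 difference was 0.39 at 4 h (SE 0.17, adjusted p = 0.110), 0.41 at 8 h (SE 0.17, adjusted p = 0.0786) and 0.30 at 16 h (SE 0.15, adjusted p = 0.148), so none passed the threshold. The 8 h difference passed it without HSD 8 h replicate 4 (adjusted p = 0.0273) or LSD replicate 4 (0.0439).

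Broad (br, FBgn0283451, X, 1575132 to 1664869, plus strand), a family of zinc-finger factors known for metamorphosis, lay at 28.6, 25.4 and 29.9 in HSD at 4 h, 26.3, 27.1 and 23.6 at 8 h, 25.5, 29.6, 30.2 and 26.4 at 16 h, and 34.9, 28.2, 29.5 and 31.6 in LSD. All HSD 8 h values were under all LSD values. At 8 h br averaged 25.7 ± 1.83 in HSD (n = 3) and 31.0 ± 2.93 in LSD (n = 4), so it fell 1.20-fold (log2 -0.27, SE 0.09, adjusted p = 0.0383). The call was lost in a fit of only the 2 groups (adjusted p = 0.0773) and without HSD 8 h replicate 2 (0.0711) or 4 (0.152) or LSD replicate 1 (0.106) or 4 (0.0685). At 4 h and 16 h its log2 difference from LSD was -0.15 each time (adjusted p = 0.270 at 4 h and 0.178 at 16 h). Mur2B lies on the other strand of br and is in the table too.

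Of the 4 later nuclear receptor genes, Hr46 and Hr4 had lower levels at 16 h, Hr39 had higher ones and Eip78C was not called in any comparison. Hr46 (FBgn0000448, 2R, 10203995 to 10237348, minus strand; Hr3 in the annotation) lay at 73.7, 65.0 and 77.3 in HSD at 4 h, 78.3, 66.4 and 65.5 at 8 h, 54.5, 51.7, 26.2 and 59.9 at 16 h, and 72.5, 74.5, 70.0 and 80.9 in LSD. All 4 libraries at 16 h lay under the other 10, and HSD 16 h replicate 3 stood lowest. Hr46 fell 1.61-fold at 16 h relative to LSD (log2 -0.69, SE 0.20, adjusted p = 0.0159) and 1.56-fold relative to HSD at 4 h (log2 -0.64, SE 0.22, adjusted p = 0.0354). Relative to HSD at 8 h the log2 difference was -0.60 (adjusted p = 0.0537), which passed the threshold without HSD 16 h replicate 1 (0.0496), 3 (0.0234) or 4 (0.0309). Without HSD 16 h replicate 3 it fell by 0.42 on the log2 scale relative to LSD (adjusted p = 0.00300) and by 0.37 relative to 4 h (adjusted p = 0.0101), and the log2 difference from 8 h was -0.34. The call relative to LSD was lost in a fit of the 2 groups alone (0.0514). The call relative to 4 h was lost in such a fit (0.105), under quantile normalization (0.0522) and without HSD 4 h replicate 1 (0.0947) or 4 (0.105).

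Hr4 (FBgn0264562, X, 1941940 to 2007956, plus strand), an orphan nuclear receptor, lay at 149, 132 and 150.1 in HSD at 4 h, 158, 121 and 107 at 8 h, 101, 106, 39.3 and 97.1 at 16 h, and 134.2, 98.8, 128 and 147 in LSD. Its 16 h libraries lay under all HSD libraries of 4 h and 8 h and overlapped LSD, and replicate 3 was far under the rest. Relative to HSD at 4 h, Hr4 fell 1.79-fold at 16 h (log2 -0.84, SE 0.29, adjusted p = 0.0377), and without replicate 3 by 0.50 on the log2 scale (adjusted p = 0.0264). Quantile normalization (0.0761), fitting the 2 groups alone (0.0890) and leaving out any one HSD 4 h library (0.0629 to 0.0994) ended the call. Relative to LSD its log2 difference at 16 h was -0.65 (SE 0.27, adjusted p = 0.0709), which passed the threshold without HSD 16 h replicate 2 (0.0480). Without replicate 3 that log2 difference was -0.31, short of the threshold.

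Hr39 (FBgn0261239, 2L, 21237250 to 21259675, plus strand) codes for a receptor of the same family as ftz-f1, and it alone of the 10 genes rose. It lay at 53.6, 40.0 and 43.9 in HSD at 4 h, 45.4, 52.2 and 36.8 at 8 h, 60.9, 60.4, 56.2 and 70.6 at 16 h, and 44.2, 31.1, 30.6 and 47.4 in LSD. The 4 libraries at 16 h were the 4 highest of all 14. At 16 h Hr39 averaged 62.0 ± 6.11, against 38.3 ± 8.76 in LSD (SD, n = 4 each), a 1.64-fold rise (log2 0.71, SE 0.16, adjusted p = 0.00371). Within HSD the log2 difference was 0.48 between 16 h and 8 h (adjusted p = 0.0542) and 0.44 between 16 h and 4 h (adjusted p = 0.0637), both without overlap and both short of the threshold. Each of those passed under some alternatives, 8 of 26 for the first and 6 of 26 for the second. Over all alternatives the adjusted p ran from 0.0120 to 0.213 and from 0.0219 to 0.196.

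Eip78C (FBgn0004865, 3L, 21226609 to 21266503, plus strand), a nuclear receptor related to Eip75B, spread widely within groups and overlapped between them. It ranged over 25.8 to 43.2 in HSD at 4 h, 25.9 to 28.5 at 8 h, 13.7 to 32.6 at 16 h and 21.3 to 36.9 in LSD. Its log2 difference from LSD was 0.29 at 4 h, -0.03 at 8 h and -0.19 at 16 h, each with an SE of 0.27 to 0.29. CG43218 overlaps it on the same strand and is in the table.

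The gene ftz-f1 (FBgn0001078, 3L, 18750607 to 18801309, minus strand) codes for a nuclear receptor needed for ecdysis in larvae, and of the 10 it showed the largest difference from LSD at 16 h. It lay at 202, 137 and 155 in HSD at 4 h, 111, 179 and 266 at 8 h, 57.5, 58.0, 42.6 and 70.6 at 16 h, and 166, 356, 160.3 and 165.5 in LSD. The 16 h libraries formed a narrow band under the other 10 libraries, while those of 8 h differed among themselves and LSD replicate 2 stood far above the rest of LSD. In order of group means, lowest first, ftz-f1 had 57.2 ± 11.4 in HSD at 16 h (n = 4), 165 ± 33.5 at 4 h (n = 3), 185 ± 77.6 at 8 h (n = 3) and 212 ± 96.1 in LSD (n = 4). Of these neighbours, 16 h differed from 4 h by more than the spread and the others did not pass the test. It fell 3.52-fold at 16 h relative to LSD (log2 -1.81, SE 0.30, adjusted p = 4.70e-04), 3.08-fold relative to HSD at 8 h (log2 -1.62, SE 0.32, adjusted p = 0.00312) and 2.87-fold relative to HSD at 4 h (log2 -1.52, SE 0.32, adjusted p = 0.00288). All 3 calls held under all 26 alternatives, with adjusted p between 2.96e-04 and 0.0181. For each call, some of these alternatives left out only a library of another group. At 8 h against LSD the log2 difference was -0.19 (SE 0.32, adjusted p = 0.686).

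Per kb of annotated exon, levels could be set beside each other between genes. In HSD at 16 h, Hr39 had the highest level, 12.5 ± 1.23 normalised read counts per kb, then usp with 10.8 ± 1.18, with ftz-f1 at 6.66 ± 1.33 and Eip74EF last at 1.38 ± 0.894 beside br at 1.38 ± 0.115 (n = 4). In LSD, ftz-f1 came first with 24.7 ± 11.2 per kb, followed by usp (12.9 ± 1.04) and Hr4 (9.12 ± 1.46), and br had the lowest level, 1.54 ± 0.145 (n = 4). The exon lengths are unions over all annotated transcripts of BDGP6.54, so a gene of which larvae use short isoforms is understated.

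**Figure D3:**
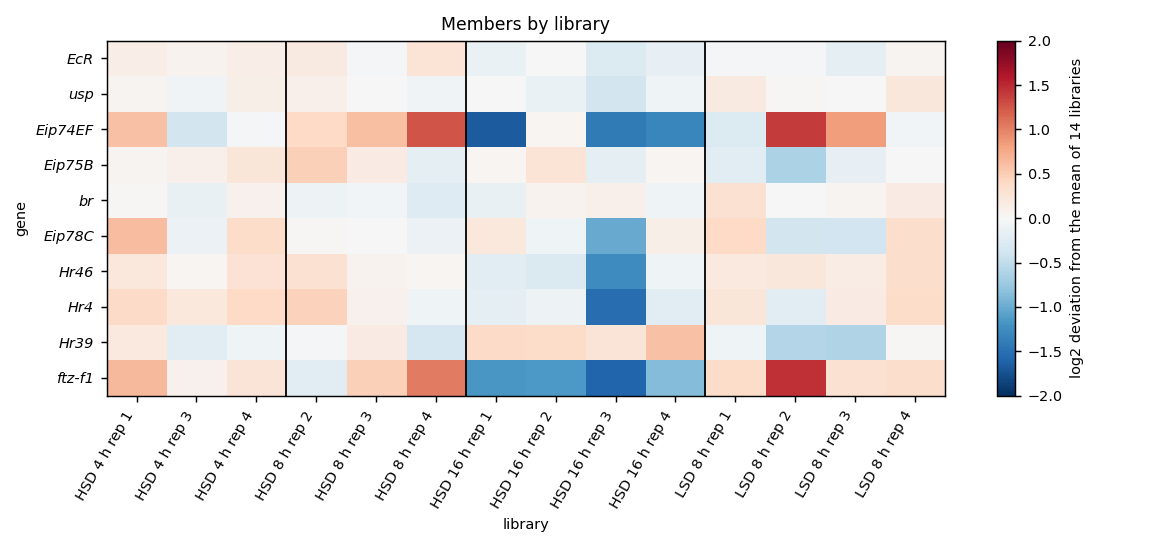
Log2 deviation of each of the 10 genes from its mean over the 14 libraries (colour, on the log2(value + 0.5) scale; vertical lines part the groups). HSD 16 h replicate 3 holds the lowest value of 6 genes (its share over all genes was not counted). The genes ftz-f1 and Eip74EF are highest in LSD replicate 2, at 356 and 65.5 normalised read counts.

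Libraries of one group differed in these genes, as the heatmap of deviations shows. HSD 16 h replicate 3 was the lowest of all 14 libraries in 6 of the 10 genes (EcR, usp, Eip78C, Hr46, Hr4 and ftz-f1), while its br value was the highest of HSD at 16 h. How often it was the lowest over all genes was not counted. The HSD 16 h libraries all had lower sums of values over all genes (910679 to 950524) than every other library (987285 to 1063358). Replicate 3 had the lowest of these sums and the most genes at 0 (30). Without it ftz-f1 still fell by 1.68 on the log2 scale relative to LSD (adjusted p = 0.00184), Eip74EF fell by 1.45 (adjusted p = 0.0322) and Hr39 rose by 0.76 (adjusted p = 0.00614). LSD replicate 2 was highest in ftz-f1 and Eip74EF and lowest in Eip75B.

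Within groups, the median of a cuticle gene list moved with Eip74EF, and in part with ftz-f1, from library to library. In a list of 20 measured cuticle genes (chitin synthesis, cuticle proteins and tanning enzymes), the summed normalised read count was 4464 to 5643 in HSD at 4 h, 5224 to 7548 at 8 h, 2151 to 3313 at 16 h and 5110 to 8172 in LSD. TwdlJ, a cuticle protein gene of the Tweedle family, was listed at 0 in HSD 4 h replicate 4 and in HSD 16 h replicates 1 and 3. Its values were 15.8 to 42.4 in the 3 HSD 8 h libraries, 12.5 in HSD 16 h replicate 2 and 17.4 and 33.6 in LSD replicates 2 and 3. Within HSD at 4 h, HSD at 8 h and LSD, the libraries stood in one order for Eip74EF and for the list's median log2 deviation. At 4 h this order was replicates 1, 4 and 3 (0.35, -0.06 and -0.27). At 8 h the order was replicates 4, 3 and 2 (0.95, 0.67 and 0.46), and in LSD it was replicates 2, 3, 4 and 1 (0.92, 0.82, 0.09 and -0.06). At 16 h, replicate 2 came first in both (0.28 for the list, with -1.10, -1.18 and -0.86 in replicates 1, 3 and 4). For ftz-f1 the order was that of the list within HSD at 4 h and at 8 h, but not in LSD or at 16 h. LSD replicate 3, at 0.82 for the list, had the lowest ftz-f1 value of LSD (160.3). At 16 h replicate 4 had the highest (70.6). Of all genes, limma called 19.4% higher and 20.4% lower at 16 h relative to LSD, 17.5% and 16.9% at 8 h, and 12.8% and 11.4% at 4 h. Of the 20 list genes, 3 were higher (near that share) and 8 lower at 16 h (median log2 -1.40). At 8 h 3 were higher, also near the share, and 0 lower (0.25), and at 4 h 1 was higher and 1 lower (-0.40). Among those lower at 16 h, the chitin synthase gene kkv averaged 162 ± 36.7 in HSD and 505 ± 78.1 in LSD (SD, n = 4 each; log2 -1.66, SE 0.16, adjusted p = 1.01e-05), and knk, needed for chitin order, had 32.2 ± 9.88 in HSD and 111 ± 26.6 in LSD (adjusted p = 6.29e-05). Those higher at 16 h were Lcp3, Lcp4 and TwdlO. Of these, the larval cuticle protein gene Lcp3 was called higher in HSD at every time. It had 8.75 ± 2.82 in HSD at 4 h, 5.43 ± 2.22 at 8 h, 2.48 ± 0.673 at 16 h (adjusted p = 3.44e-05) and 0.129 ± 0.135 in LSD, which is about the value of 3 reads.

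**Figure D4:**
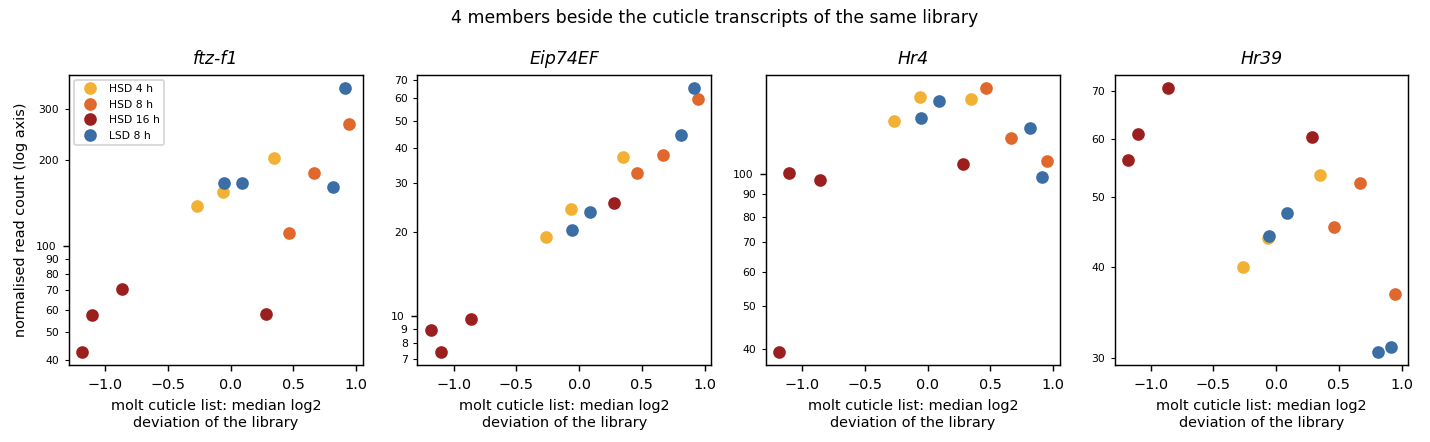
Normalised read count of ftz-f1, Eip74EF, Hr4 and Hr39 (log axes) against the median log2 deviation of the 20 cuticle genes in the same library; each point is 1 of 14 libraries, coloured by group. Eip74EF runs from 7.41 at a deviation of -1.10 to 65.5 at 0.92, while the 4 HSD 16 h points for ftz-f1 stay between 42.6 and 70.6 over deviations from -1.18 to 0.28.

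The stage of the molt cycle was not scored in the labels, and its part in these differences was not tested. A further step left out 3 libraries (HSD 16 h replicate 2, LSD replicates 2 and 3). Their TwdlJ was high, where the others of their group had little. They also held the highest Eip74EF values of their groups (25.3 in HSD 16 h replicate 2, 65.5 and 44.4 in LSD replicates 2 and 3). The step thus took out high Eip74EF values, so what it gives for Eip74EF is no separate evidence. The LSD libraries kept, replicates 1 and 4, had cuticle list deviations of -0.06 and 0.09. Those kept in HSD at 16 h, replicates 1, 3 and 4, had -1.10, -1.18 and -0.86, so the groups were not matched for the list. In this fit ftz-f1 fell by 1.57 on the log2 scale at 16 h relative to LSD (adjusted p = 0.00710). Eip74EF fell by 1.29 (adjusted p = 0.0104) and usp fell by 0.36 (adjusted p = 0.0361). Hr46 (log2 -0.79, adjusted p = 0.0658) and Hr39 (0.44, adjusted p = 0.0695) then missed the threshold. Within HSD, between 16 h and 4 h, Hr46 also missed it (adjusted p = 0.0599) and Eip74EF passed it (adjusted p = 0.00201). At 8 h the same step left LSD libraries low in TwdlJ beside HSD libraries high in it, and Eip74EF was then higher in HSD by 0.92 on the log2 scale (adjusted p = 0.0418).

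Genes that make, move and clear ecdysone differed gene by gene. Of 12 genes of synthesis, its control and transport, 3 were higher and 0 lower at 8 h relative to LSD (median log2 0.08), 1 higher and 2 lower at 4 h (-0.03), and 4 higher and 2 lower at 16 h (0.09). Of all genes, 17.5% were higher and 16.9% lower at 8 h, 12.8% and 11.4% at 4 h, and 19.4% and 20.4% at 16 h, so with 12 genes these counts lie near the background. The same shares apply to the lists that follow. The gene shd, for the enzyme that turns ecdysone into its active form in target tissues, averaged 5.05 ± 1.53 in HSD at 4 h (n = 3), 8.67 ± 2.12 at 8 h (n = 3), 14.1 ± 1.79 at 16 h (n = 4) and 2.78 ± 1.75 in LSD (n = 4). It rose 3.01-fold at 8 h (log2 1.59, SE 0.32, adjusted p = 0.00207) and 4.87-fold at 16 h (log2 2.28, SE 0.29, adjusted p = 7.88e-05) relative to LSD. Atet, an ABC transporter gene that loads ecdysone into secretory vesicles, had 63.7 ± 3.71 in HSD at 8 h and 42.9 ± 6.64 in LSD (log2 0.58, adjusted p = 0.00146).

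Of the 4 measured prothoracic gland genes, phm and spok were lower at 4 h and spok was higher at 16 h relative to LSD; nvd and sad were called at neither time. At 4 h the hydroxylase gene phm had 9.74 ± 0.596 in HSD and 13.1 ± 0.877 in LSD (log2 -0.41, adjusted p = 0.00569), and the cytochrome P450 gene spok had 12.0 ± 1.76 in HSD and 16.0 ± 1.09 in LSD (log2 -0.41, adjusted p = 0.0138). At 16 h spok had 20.4 ± 2.00 and was higher than in LSD (log2 0.34, adjusted p = 0.0165), while the log2 difference of phm was -0.11 (adjusted p = 0.307). Npc1a, which moves cholesterol out of lysosomes, had 66.8 ± 1.90 in HSD at 16 h and 93.6 ± 5.55 in LSD (log2 -0.48, adjusted p = 5.08e-05). The 2 measured genes of the inactivation list gave 1 higher and 0 lower at 8 h (median log2 0.08), 1 higher and 0 lower at 4 h (0.03), and 0 higher and 1 lower at 16 h (-0.81). The gene higher at 8 h and 4 h was Cyp12c1 (log2 0.49 and 0.43), whose part in clearing ecdysone was not checked here. Cyp18a1 was not called at 8 h or 4 h (limma adjusted p = 0.485 and 0.452). The gene lower at 16 h was Cyp18a1, for the enzyme that hydroxylates and inactivates the hormone. It fell to 23.5 ± 9.55 in HSD at 16 h, against 74.7 ± 17.4 in LSD (log2 -1.71, SE 0.31, adjusted p = 8.52e-04), and at 8 h it had 61.8 ± 23.8.

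**Figure D5:**
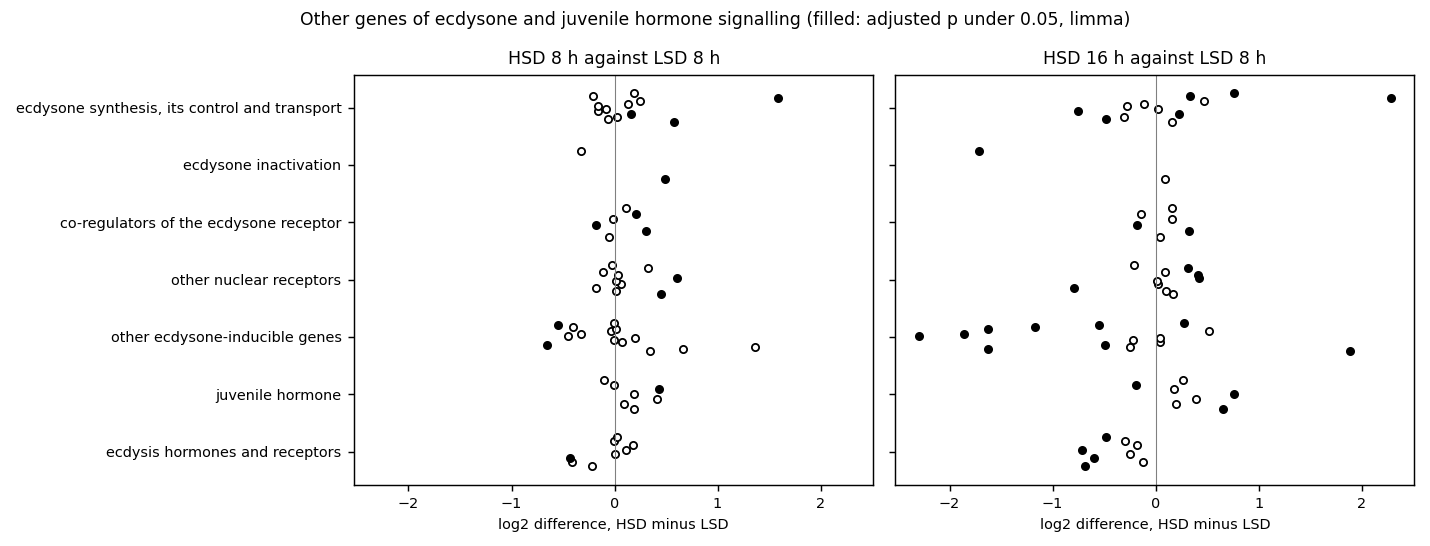
Log2 difference between HSD and LSD at 8 h (left) and between HSD at 16 h and LSD at 8 h (right) for the other genes of ecdysone and juvenile hormone signalling, 1 point a gene; filled points have an adjusted p under 0.05 (limma). At 16 h the list of other ecdysone-inducible genes has 7 filled points below 0 and 2 above, and the ecdysis list has 4 below 0 and none above.

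Other genes named for their response to ecdysone gave more calls of lower than of higher levels at 16 h. Of 14 such genes, 2 were higher and 7 lower at 16 h relative to LSD (median log2 -0.37), beside 19.4% of all genes higher and 20.4% lower, 0 higher and 2 lower at 8 h (-0.01), and 1 higher and 2 lower at 4 h (-0.09). ImpE2, an imaginal disc gene, had 63.9 ± 12.6 in HSD at 16 h and 238 ± 78.2 in LSD (log2 -1.86, SE 0.25, adjusted p = 1.17e-04). ImpL2, whose product binds insulin-like peptides, had 136 ± 15.3 in HSD at 16 h and 305 ± 10.8 in LSD (log2 -1.17, adjusted p = 1.25e-04). The 2 genes lower at 8 h were Eip55E and ImpL3, which code for metabolic enzymes, cystathionine gamma-lyase and lactate dehydrogenase. Eip55E had 160.0 ± 5.90 in HSD and 253 ± 16.4 in LSD at 8 h (log2 -0.66, adjusted p = 3.11e-05).

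Among ecdysis hormones and their receptors, 0 of 8 were higher and 4 were lower at 16 h relative to LSD (median log2 -0.39), and 0 higher and 1 lower at 8 h (0.00). ETHR, the receptor for ecdysis-triggering hormone, had 10.3 ± 1.16 in HSD at 16 h and 17.1 ± 0.362 in LSD (log2 -0.71, SE 0.08, adjusted p = 3.07e-05), with 18.6 ± 1.76 in HSD at 8 h. Burs, for a subunit of the tanning hormone bursicon, had 1.57 ± 0.258 in HSD at 16 h and 2.82 ± 0.307 in LSD (log2 -0.68, adjusted p = 0.00233).

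Co-regulators, other nuclear receptors and juvenile hormone genes had a few called genes each. Of 6 co-regulator genes, 2 were higher and 1 lower at 8 h (median log2 0.05), and 1 was higher and 1 lower at 16 h (0.10). The coactivator gene tai had 125 ± 3.67 in HSD at 8 h and 108 ± 10.0 in LSD (log2 0.21, adjusted p = 0.0419), and bonus (bon) had 54.2 ± 2.14 in HSD and 61.8 ± 5.21 in LSD (log2 -0.18, adjusted p = 0.0430). Of 10 other nuclear receptor genes, 2 were higher and 0 lower at 8 h (median log2 0.02), and 3 higher and 1 lower at 16 h (0.09). The 2 at 8 h were ERR, a regulator of carbohydrate metabolism (28.7 ± 2.26 in HSD and 20.9 ± 1.70 in LSD, adjusted p = 0.00415), and Hr96 (34.5 ± 0.724 in HSD and 22.8 ± 4.22 in LSD, adjusted p = 0.00226). The gene lower at 16 h was Hr38, a receptor of the NR4A family, with 1.86 ± 0.490 in HSD and 3.54 ± 0.509 in LSD (log2 -0.79, SE 0.14, adjusted p = 9.00e-04). Of 7 juvenile hormone genes, 1 was higher and 0 lower at 8 h (median log2 0.19), namely the receptor gene Met with 28.3 ± 0.891 in HSD and 21.0 ± 2.38 in LSD (adjusted p = 0.00161). At 16 h 2 were higher and 1 lower (0.26), among them Kr-h1, a juvenile hormone response factor, with 7.42 ± 0.718 in HSD and 4.32 ± 1.48 in LSD (adjusted p = 0.0263).

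For each of the 10 genes, the genes whose log2 values were most like its own over the 14 libraries were looked up among 8623 genes with a mean of at least 5. Here r is Pearson's, over libraries of which several share a diet and a time, and is given as a description. For ftz-f1 they were CG9990 (r = 0.989) and CG32694 (0.988), for Hr4 Np (0.983) and CG43366 (0.979), and for Eip74EF the cuticle protein gene Ccp84Ad (0.956) and CG17386 (0.954). Hr46 was most like CG9503 (0.957), usp like CG9467 (0.954) and br like nSyb (0.978). Eip75B was most like mnb (0.918), Eip78C like CG13744 (0.924) and EcR like CG7852 (0.883). For Hr39 the nearest gene was Blimp-1 (0.960), an ecdysone-inducible gene for a repressor known to act on ftz-f1. Blimp-1 averaged 56.4 ± 10.4 in HSD at 16 h and 17.7 ± 11.7 in LSD (SD, n = 4 each), a 3.71-fold rise (log2 1.89, SE 0.52, adjusted p = 0.0115). Here it was picked for its likeness to Hr39 in these same libraries, so its rise is no separate evidence. Relative to HSD at 8 h and at 4 h it was not called (limma adjusted p = 0.0541 and 0.0560). Its part in the ftz-f1 levels was not tested.

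Among the 10 genes themselves, Hr46 and Hr4 were the most alike (r = 0.938 over the 14 libraries, 0.918 after the group means were taken out), followed by usp with Hr46 (0.887, and 0.813 within groups). Eip74EF and ftz-f1 had r = 0.845, and 0.612 within groups. Hr39 ran opposite to ftz-f1 over all libraries (-0.739) but hardly within groups (-0.195), and for Hr39 and Eip74EF the values were -0.729 and -0.432. HSD 16 h replicate 3 is low in usp, Hr46 and Hr4 alike, and LSD replicate 2 is high in Eip74EF and ftz-f1 alike, so single libraries weigh on these values.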

How the data were processed

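Per the labels' protocols, RNA of whole larvae was depleted of ribosomal RNA, made into stranded libraries and read as 75 bp single ends in 2 technical runs per sample. Trimmomatic, TopHat2 2.1.0, HTSeq and limma are the tools named in the submitters' processing notes. Genome build, annotation and strand setting were not given in the sources used here. Deposited by the authors was 1 table of 10128 genes whose signal values (called normalised read counts here) are read counts divided by a library size; 100% came out as whole reads within 0.01 read. Per the file headers the table also holds the authors' log2 fold changes and mean levels, their t and F statistics (a score) and their p-values, of which only counts of calls are quoted.

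Values were tested as log2(value + 0.5), which understates changes of low genes, with limma 3.58.1 in R 4.3.3. A gene had to reach 1 in 3 or more libraries (10114 did). The 4 groups shared 1 fit with a trend of variance on mean; two-sided p-values of 6 comparisons were adjusted by Benjamini-Hochberg over all genes, and those under 0.05 were called. One alternative was the quasi-likelihood test of edgeR 4.0.16 on recovered reads. Folds are log2 differences turned back to ratios. Gene identifiers were matched to Ensembl 115 (BDGP6.54), which held 9990 of them; 3 reads per library is the detection floor, for counting error only. Examples from a list are the 2 genes with the smallest adjusted p in a comparison, not all printed; others named were chosen after their values were seen. The 10 genes, the lists and the alternatives were chosen with earlier results of these data known.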

Additional observations from a re-analysis of the deposited data

Results flagged for a closer look

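In 20 sets of 4 libraries (10 genes in HSD at 16 h and in LSD), 3 held a library whose gap to its nearest neighbour, divided by the range of the set, passed Dixon's critical value of 0.829; chance gives about 1 in 20 such sets. Eip74EF in HSD 16 h replicate 2 was 25.3, with the other 3 libraries at 7.41 to 9.73 (gap over range 0.870); the same library held TwdlJ at 12.5, where the others were at 0 to 0.147. Hr4 in HSD 16 h replicate 3 was 39.3, with the others at 97.1 to 106 (0.870). The ftz-f1 value of LSD replicate 2 was 356, with the others at 160.3 to 166 (0.969).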

How the results depend on the processing

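Over 26 alternatives, 1494 repeats of the tests of single genes (10 genes, 6 comparisons) kept their side of the threshold, 38 lost a call and 28 gained one. Most of these tests were not called in the main fit, and only a called test could lose a call. Leaving out a library of neither group compared could not change a log2 difference. Where the main fit or the repeat gave a call, 0 reversed direction. The direction of differences called in neither was not followed. The number of the 10 genes called for HSD at 8 h against LSD was 1 and became 0 in a fit of only the groups compared, 0 with a replicate block (br, adjusted p = 0.102) and 2 without the 3 libraries high in TwdlJ; leaving out single libraries gave 0 to 2. For HSD at 16 h against LSD it was 5 and became 3 in a fit of only the groups compared and 3 without those libraries (4 to 5 without single libraries). For HSD at 16 h relative to 8 h it was 3 (1 to 4), and relative to 4 h it was 4, became 2 under quantile normalization, and ranged over 1 to 5 without single libraries. A fit of only the groups compared and one without libraries rest on fewer samples; for the other settings the cause was not tested. Replicate numbers are shared by groups but did not pair the libraries: deviations of same-numbered libraries correlated at -0.460 to 0.350 (median -0.01, 6 of 18 pairs over 0.1), and 4 of 14 libraries correlated best with their own number. With the replicate block the counts of the 3 comparisons with 16 h were 5 (LSD), 4 (HSD at 8 h) and 5 (HSD at 4 h), with Hr46 gained relative to 8 h (adjusted p = 0.0436) and Eip74EF relative to 4 h (0.0465). Depth limits low values: one under 0.117 to 0.182 rests on fewer than 3 reads.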
